A study of Mus musculus with 114 samples.

Results

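The 9 genes described here are interferon-stimulated genes and their transcription factors in mouse adipocytes: Stat2, Irf9, Irf1, Irf7, Isg15, Ifit1, Ifit3, Oasl2 and Bst2. They were picked by symbol from the 29132 genes of the expression table, all 9 were found, and all 9 were among the 10343 genes with enough signal to be tested. Male C57BL/6J mice were fed chow (CD) or a fat-rich diet (high fat, HFD) from 6 weeks of age and were taken after 8, 20 or 34 weeks of feeding, at 14, 26 and 40 weeks of age. Perigonadal fat was digested with collagenase and RNA was sequenced from the floating, adipocyte-enriched fraction of 38 mice, with 6 mice in every group except the 34 week CD group, which had 8. Each mouse was taken at 1 time only, and each time is a separate set of mice, so that weeks of diet, age and the occasion of harvest cannot be told apart.

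Type I interferons signal through a receptor whose kinases, JAK1 and TYK2, activate STAT2 among other proteins. With IRF9, STAT2 is part of a complex that binds interferon response elements in the promoters of target genes, and IRF1 and IRF7 are themselves induced and extend the response. The targets include ISG15, a ubiquitin-like protein that is attached to other proteins, the RNA-binding IFIT proteins, the oligoadenylate synthetase-like protein OASL2, and BST2 (tetherin), which holds budding virus particles at the cell membrane. In adipose tissue the response can arise in adipocytes or in immune cells.

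The promoters of 5 of the 9 genes held the core of an interferon response element, searched as GAAA, any 2 bases and GAAA again, on either strand in the 250 bases before a RefSeq transcription start (GRCm38.p6), as did 2.98% of the 32851 promoter windows of all genes. The pattern TTCNNNGAA, a palindrome bound by STAT dimers, was found in 2 of the 9 genes and in 7.02% of all windows. The stretches below are shown for every member that held a match of either pattern, without regard to its expression. They read 5′ to 3′ along the gene, and the capitals mark the matches, which in Stat2, Ifit1 and Ifit3 are the pattern on the opposite strand.

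Stat2, chr10:128270248-128270315, plus strand: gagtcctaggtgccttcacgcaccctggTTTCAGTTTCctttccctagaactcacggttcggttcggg

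Isg15, chr4:156200845-156200926, minus strand: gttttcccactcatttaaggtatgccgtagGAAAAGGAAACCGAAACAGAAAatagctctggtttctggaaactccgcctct

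Ifit1, chr19:34640755-34640843, plus strand: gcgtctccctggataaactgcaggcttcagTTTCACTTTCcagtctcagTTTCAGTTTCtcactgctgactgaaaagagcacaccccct

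Ifit3, chr19:34583343-34583446, plus strand: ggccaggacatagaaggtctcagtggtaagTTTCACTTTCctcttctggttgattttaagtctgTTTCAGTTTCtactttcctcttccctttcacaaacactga

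Bst2, chr8:71537557-71537632, minus strand: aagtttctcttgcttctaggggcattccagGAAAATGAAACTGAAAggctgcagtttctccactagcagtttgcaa

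Irf1, chr11:53769894-53769962, plus strand, pattern TTCNNNGAA: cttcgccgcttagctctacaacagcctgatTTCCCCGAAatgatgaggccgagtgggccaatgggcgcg

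Isg15 held 3 overlapping matches within 78 bases of its start, whereas Ifit1, Ifit3 and Bst2 held 2 each and Stat2 held 1. The TTCNNNGAA match of Bst2 overlaps its interferon pattern. Irf9, Irf7 and Oasl2 held neither pattern in these windows, which says only that these letters are absent there.

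In GENCODE coordinates (GRCm38), Isg15 lies on chromosome 4 at 156199424 to 156200818, Oasl2 on chromosome 5 at 114896936 to 114912234, Irf7 on chromosome 7 at 141262706 to 141266481, Bst2 on chromosome 8 at 71534255 to 71537456 and Stat2 on chromosome 10 at 128270559 to 128292849. Irf1 lies on chromosome 11 at 53770014 to 53778374 and Irf9 on chromosome 14 at 55603571 to 55610030. Ifit3 (34583531 to 34588731) and Ifit1 (34640871 to 34650009) both lie on chromosome 19. The ends of Irf7 and Irf9 overlap Phrf1 and Rnf31, and Irf1 overlaps Gm17334. The authors counted only reads that fell on a gene without ambiguity, so that reads in these overlaps may be missing from the counts. Ifit3 has a near-identical neighbour, Ifit3b, which was on the list of other type I effectors used below. Reads that match both may be missing from the counts or be assigned to either gene.

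Expression is given as counts per 1000000 reads (CPM), and each mouse had 9275711 to 15480388 reads, so that even the lowest member value, Isg15 in 1 CD mouse, rested on 22 reads. Scaled to the length of the gene's merged exons, Irf1 was the highest member in 5 of the 6 groups, at 206 CPM per kb ± 39.5 (SD, n = 6) in CD mice at 20 weeks. The exception was CD mice at 34 weeks, in which Bst2 (98.9 CPM per kb ± 69.4, n = 8) was above Irf1 (64.3 CPM per kb ± 24.5) with overlapping spreads. Oasl2 was the lowest member in 5 groups, at 0.815 CPM per kb ± 0.333 in CD mice at 8 weeks. In HFD mice at 34 weeks Ifit1 was lowest, at 1.78 CPM per kb ± 0.295 (n = 6).

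**Figure D1:**
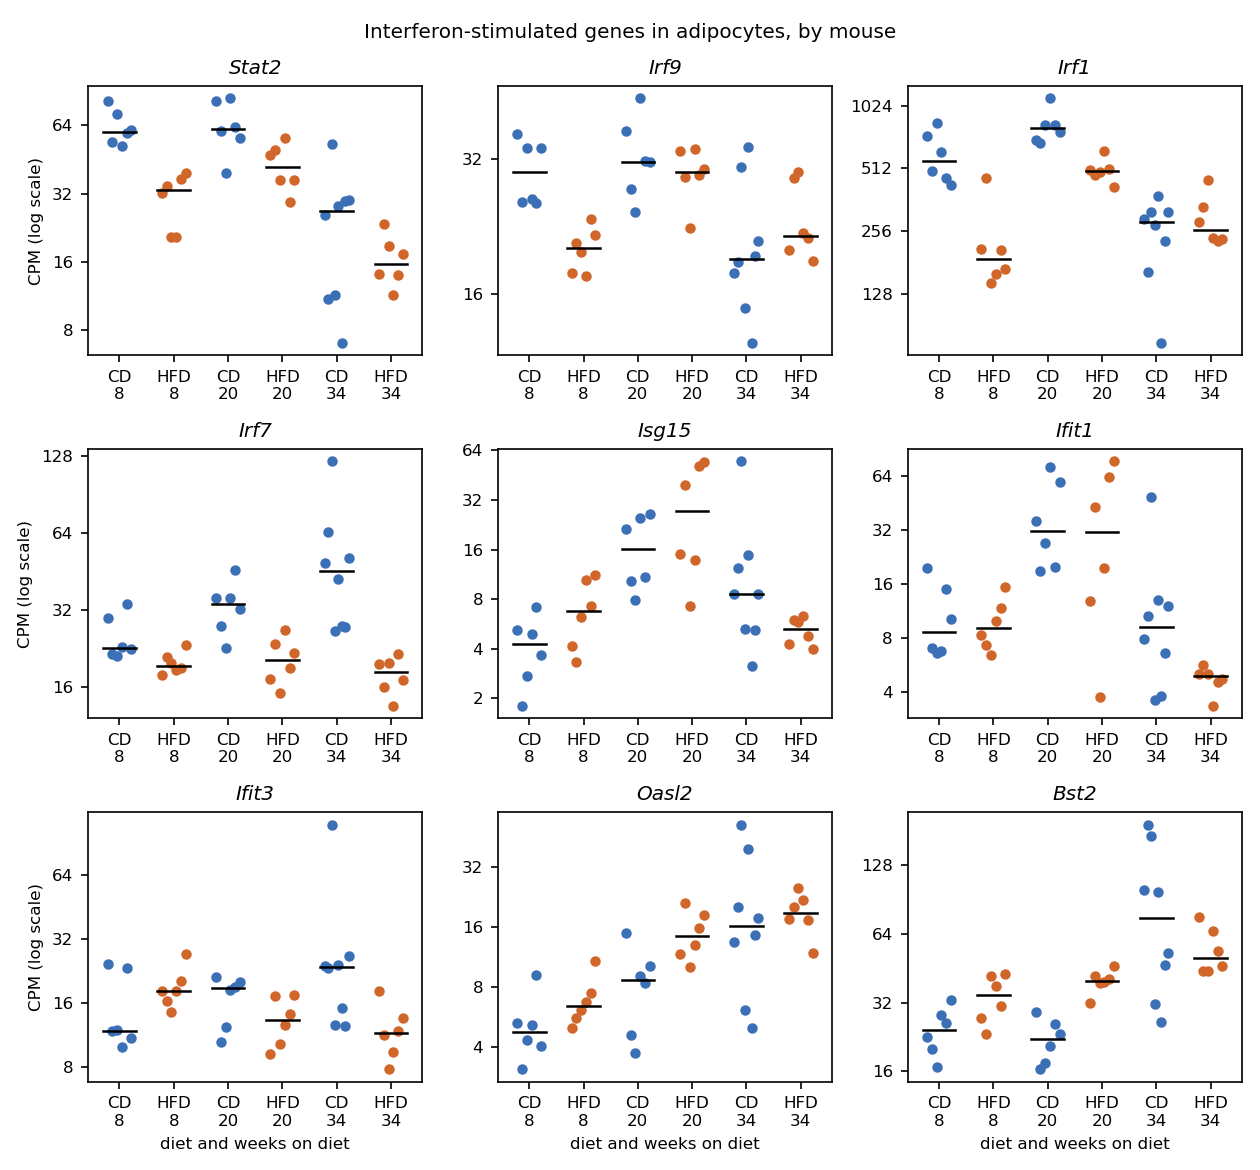
CPM of each member in each of the 38 mice on a log scale, by diet (blue CD, orange HFD) and weeks on diet; bars are group medians. Stat2 and Irf1 sat lower in HFD than in CD mice at 8 weeks, Isg15 and Ifit1 spread widely at 20 weeks, and 1 CD mouse at 34 weeks was high for most members.

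The identity of the cells was checked against marker genes. All 10 adipocyte markers were tested, and their summed level was 16598 to 66729 CPM over all mice, against 403 to 16240 CPM for 13 macrophage markers. The adipocyte sum was lower in HFD mice without overlap at 8 weeks (34332 to 45863 against 47981 to 59043 CPM in CD mice). The same held at 20 weeks (24963 to 35109 against 41336 to 66729 CPM). At 34 weeks it was 16598 to 40107 against 29914 to 62522 CPM. At 8, 20 and 34 weeks, 2, 7 and 9 of these 10 markers were called lower and 1, 1 and 0 higher. The part of this fall in the member values was not tested. Macrophage markers moved with diet: the sum was 1034 to 3666 CPM in CD and 4692 to 9665 CPM in HFD mice at 20 weeks, with no overlap, and 10 of 13 markers rose and 1 fell. At 8 weeks the sum was 403 to 1858 CPM in CD and 1175 to 3303 CPM in HFD mice, and at 34 weeks 1230 to 13327 CPM in CD and 5430 to 16240 CPM in HFD mice. Other cell markers also rose in HFD mice at 8, 20 and 34 weeks, and none of them fell. The numbers called higher were 8, 6 and 7 of 8 endothelial markers and 3, 7 and 3 of 7 progenitor and fibroblast markers. Of 10 lipid-associated macrophage markers they were 9, 10 and 9, where 29.8%, 38.3% and 27.5% of all genes were called higher. The macrophage level used in fits below rests on the 13 markers alone, and the part of these other cells was not tested. Markers of T, NK and B cells each summed to at most 5.99 CPM in any mouse and those of plasmacytoid dendritic cells to at most 14.5 CPM. In such a fraction, fewer cells of a type and less RNA per cell cannot be told apart.

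Which members differed by diet after 8 weeks was asked first. Of the 4 transcription factors among the members, Irf1, Stat2 and Irf9 were lower in HFD mice, Irf7 was not called (log2FC -0.31, adjusted p = 0.274, limma), and none of the 9 members rose. Stat2, the partner of IRF9 in the interferon-activated complex, ranged over 51.8, 59.99 and 82.1 CPM (lowest, median and highest of 6) in CD and 20.6, 33.3 and 39.3 CPM in HFD mice. Irf9, its DNA-binding partner, ranged over 25.6, 29.9 and 36.4 CPM in CD and 17.6, 20.3 and 23.5 CPM in HFD mice. Irf1, a transcription factor induced by interferon gamma, ranged over 425, 555 and 851 CPM in CD and 144, 188 and 461 CPM in HFD mice.

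Every HFD mouse was below every CD mouse for Stat2 and Irf9, whereas for Irf1 the groups overlapped through 1 HFD mouse, mouse 2 at 461 CPM. The log2 fold change (log2FC, on the log2(CPM + 1) scale) was -1.48 ± 0.28 (SE) for Irf1 (adjusted p = 9.81e-05, limma), -1.05 ± 0.30 for Stat2 (adjusted p = 0.00499) and -0.55 ± 0.17 for Irf9 (adjusted p = 0.00917). The 3 members called lower compare with 15.1% of all genes tested that were called lower, and none was called higher, against 29.8%. The 2 non-overlapping members compare with 22.8% of genes whose groups did not overlap. The median log2FC was -0.07 over the members and 0.11 over all genes tested. The 3 calls held whichever mouse was left out and with the mean macrophage marker level of each mouse in the fit (Irf1 -1.50, Stat2 -1.10, Irf9 -0.73).

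No effector was called at 8 weeks. Isg15 had a log2FC of 0.62 (95% interval -0.31 to 1.54), Ifit1 -0.07 (-1.09 to 0.94), Ifit3 0.36 (-0.30 to 1.01), Oasl2 0.38 (-0.34 to 1.11) and Bst2 0.46 (-0.17 to 1.09). The intervals of Isg15, Oasl2 and Bst2 reach past a rise of the size of the fall in Stat2, that of Ifit1 past a fall of that size, and that of Ifit3 ends short of it. When the spread was taken from the 12 mice of this time alone, Bst2 (adjusted p = 0.0418) and Irf7 (log2FC -0.31, adjusted p = 0.0381) were called as well.

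**Figure D2:**
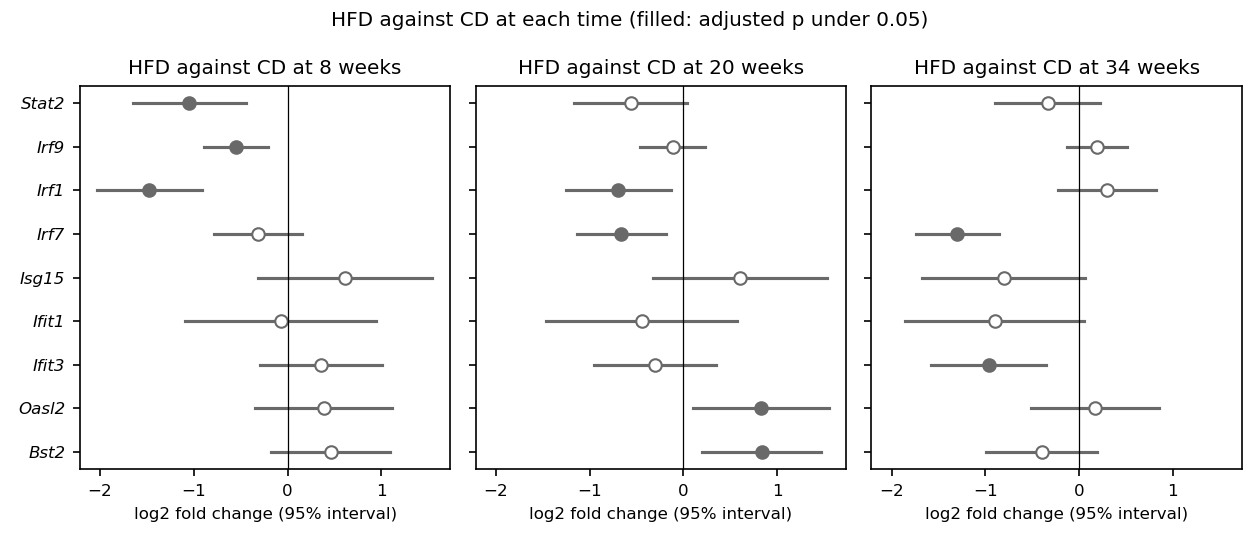
Log2 fold change of each member in HFD against CD mice at 8, 20 and 34 weeks, with 95% intervals from limma; filled points have an adjusted p under 0.05. The lower members were Stat2, Irf9 and Irf1 at 8 weeks, Irf1 and Irf7 at 20 weeks, and Irf7 and Ifit3 at 34 weeks.

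After 20 weeks, 2 members fell and 2 rose. Irf1 was again lower in HFD mice, at 417, 498 and 622 CPM against 676, 799 and 1114 CPM in CD mice. Irf7, the factor that amplifies interferon production, was at 15.1, 20.3 and 26.7 CPM in HFD and 22.6, 33.9 and 45.7 CPM in CD mice. Bst2 was at 31.9, 39.8 and 46.4 CPM in HFD and 16.3, 22.1 and 29.2 CPM in CD mice.

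The groups did not overlap for Irf1 and Bst2 and overlapped for Irf7. Oasl2 was at 10.03, 14.4 and 21.2 CPM in HFD and 3.75, 8.71 and 15.0 CPM in CD mice, again with overlap. The log2FC was -0.69 ± 0.28 for Irf1 (adjusted p = 0.0313, limma), -0.66 ± 0.23 for Irf7 (adjusted p = 0.0158), 0.84 ± 0.31 for Bst2 (adjusted p = 0.022) and 0.83 ± 0.36 for Oasl2 (adjusted p = 0.0472). Of all genes tested, 18.7% were called lower and 38.3% higher, and the groups did not overlap for 37.2%. The median log2FC was -0.30 over the members and 0.14 over all genes.

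The summed macrophage markers did not overlap between the diets at 20 weeks, so a macrophage term in the fit can take up the diet difference itself, and with it the genes called among all tested went from 5894 to 3331. The part of macrophages in the values of Bst2 and Oasl2 was not tested apart from diet. With the mean macrophage marker level of each mouse in the fit, the log2FC of Bst2 was 0.18 (adjusted p = 0.725) and that of Oasl2 -0.01 (adjusted p = 0.987), while Irf7 was at -0.79 (adjusted p = 0.0316) and Irf1 at -0.73 (adjusted p = 0.0983). Scaling the libraries by TMM factors instead of reads moved the median of all genes from 0.14 to -0.05, and with it Bst2 was at 0.65 (adjusted p = 0.0628) and Oasl2 at 0.65 (adjusted p = 0.101), whereas Stat2 was called lower at -0.76 (adjusted p = 0.0214; -0.56, adjusted p = 0.103, by reads). Under TMM scaling 3 members were thus called lower and none higher. The shift between both scalings was 0.11 at 8 weeks (medians 0.11 and 0.00) and 0.09 at 34 weeks (0.07 and -0.01).

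Single mice also decided calls at 20 weeks. Irf1 was not called without CD mouse 4 (-0.60, adjusted p = 0.0774) or HFD mouse 6 (-0.64, adjusted p = 0.0634), nor Bst2 without CD mouse 2 (0.76, adjusted p = 0.05001). Oasl2 lost its call when any 1 of 8 mice was left out, namely CD mice 2, 3, 4 and 5 (0.70, 0.65, 0.87 and 0.85) and HFD mice 2, 4, 5 and 6 (0.73, 0.86, 0.81 and 0.77), with adjusted p of 0.0522 to 0.135. The call on Irf7 held whichever mouse was left out.

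Isg15 and Ifit1 varied most from mouse to mouse at 20 weeks, within both diets. Isg15 ranged over 7.87, 16.1 and 26.4 CPM in CD and 7.30, 27.3 and 54.4 CPM in HFD mice. Ifit1 ranged over 18.8, 31.6 and 71.8 CPM in CD and 3.72, 31.2 and 77.0 CPM in HFD mice. The diet groups overlapped for both, and the log2FC had wide intervals, 0.60 (-0.33 to 1.53) for Isg15 and -0.44 (-1.46 to 0.57) for Ifit1. These intervals rest on the spread shared by all 6 groups, not on that of the 20 week mice alone. Their SE, 0.46 for Isg15 and 0.50 for Ifit1, was the same at 8 weeks. The SD of log2(CPM + 1) among the HFD mice was 1.14 for Isg15 and 1.53 for Ifit1, where the median SD of all genes tested was 0.158.

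After 34 weeks, Irf7 and Ifit3 were lower in HFD mice. Irf7 was at 13.4, 18.3 and 21.5 CPM in HFD mice (lowest, median and highest of 6) and at 26.5, 45.5 and 122 CPM in the 8 CD mice. Ifit3, whose protein binds RNA together with IFIT1, was at 7.78, 11.6 and 18.2 CPM in HFD and 12.5, 23.6 and 110 CPM in CD mice. The groups did not overlap for Irf7, which held for 2.46% of all genes tested, and overlapped for Ifit3.

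The log2FC was -1.30 ± 0.22 for Irf7 (adjusted p = 5.23e-05, limma) and -0.97 ± 0.30 for Ifit3 (adjusted p = 0.0102), where 15.7% of all genes were called lower and 27.5% higher. The median log2FC was -0.40 over the members and 0.07 over all genes. Both calls held whichever mouse was left out, but Ifit3 was not called with the macrophage level in the fit (-0.94, adjusted p = 0.087) or with the spread of the 34 week mice alone (adjusted p = 0.0802). Stat2 at 16.5 CPM ± 4.28 in HFD against 24.5 CPM ± 14.8 in CD mice, and Irf1 at 295 CPM ± 85.9 against 255 CPM ± 97.4 (SD), were not called.

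CD mouse 3 at 34 weeks was the highest of its group for 6 of the 9 members. It had 54.8 CPM of Isg15, 49.1 CPM of Ifit1 and 110 CPM of Ifit3, where the other 7 CD mice ranged over 3.13 to 14.8, 3.62 to 13.0 and 12.5 to 26.5 CPM. It was also at 122 CPM of Irf7, 51.9 CPM of Oasl2 and 53.0 CPM of Stat2, but not the highest for Irf1, Irf9 and Bst2. Without it, the log2FC of HFD against CD was -1.10 for Irf7 and -0.65 for Ifit3, both still called. In a test on the recovered reads with all 8 CD mice, Isg15, Ifit1 and Bst2 were also called lower at 34 weeks, with log2FC of -1.51, -1.57 and -0.77 (adjusted p = 0.0159, 0.0178 and 0.0301, edgeR's quasi-likelihood test).

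The change of each diet difference with time was tested directly. From 8 to 34 weeks the difference in Irf1 moved from -1.48 to 0.30, a shift of 1.77 ± 0.38 (adjusted p = 0.000776, limma), and that in Irf9 from -0.55 to 0.19, a shift of 0.74 ± 0.23 (adjusted p = 0.0159). The difference in Irf7 moved the other way, from -0.31 to -1.30, a shift of -0.99 ± 0.32 (adjusted p = 0.0194), as did that in Ifit3, from 0.36 to -0.97, a shift of -1.32 ± 0.44 (adjusted p = 0.0232). These 4 members, 2 in each direction, compare with 13% of all genes whose diet difference shifted up and 15.9% whose difference shifted down. They were called whichever mouse was left out, and without CD mouse 6 at 34 weeks Bst2 (-1.06, adjusted p = 0.0384) and Isg15 (-1.62, adjusted p = 0.0459) were called too.

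From 8 to 20 weeks no member's diet difference was called to change by limma, edgeR or DESeq2, none had an unadjusted p under 0.05 in limma, and 4.49% of all genes were called. From 20 to 34 weeks none was called by limma, 3 had an unadjusted p under 0.05, and 10.5% of all genes were called. By edgeR 2 were called, Bst2 (-1.42, adjusted p = 0.024) and Isg15 (-2.17, adjusted p = 0.0397), by DESeq2 these and Irf1 (1.00, adjusted p = 0.0482), and by limma with TMM factors Irf1 (1.10, adjusted p = 0.0478). In limma, Bst2 (-1.24, adjusted p = 0.056) was called without CD mouse 1 at 20 weeks (-1.32), without CD mouse 4, 6 or 7 at 34 weeks (-1.40, -1.44 and -1.32) or without HFD mouse 1 at 34 weeks (-1.33). Irf1 (0.99, adjusted p = 0.0829) was called without CD mouse 5 at 34 weeks (1.09, adjusted p = 0.0481).

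Within CD mice, 3 members fell and 5 rose between 8 and 34 weeks. Stat2 (log2FC -1.55 ± 0.28, adjusted p = 1.5e-05), Irf1 (-1.31 ± 0.26, adjusted p = 5.54e-05) and Irf9 (-0.55 ± 0.16, adjusted p = 0.00328) fell in limma. Bst2 (1.54 ± 0.29, adjusted p = 3.44e-05), Oasl2 (1.54 ± 0.34, adjusted p = 0.000183), Irf7 (0.83 ± 0.22, adjusted p = 0.00126), Isg15 (1.12 ± 0.43, adjusted p = 0.0227) and Ifit3 (0.68 ± 0.30, adjusted p = 0.0471) rose. Ifit1 was at -0.05 (adjusted p = 0.929). Of all genes tested, 24.6% were called lower and 40.1% higher in this comparison, and the median log2FC was 0.68 over the members and 0.13 over all genes.

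For Irf1 all 8 CD mice at 34 weeks (74.2, 283 and 379 CPM) were below the lowest at 8 weeks, and no other member was without overlap, against 24.7% of all genes. Bst2 was at 26.2, 74.8 and 191 CPM at 34 weeks, above the highest 8 week mouse in 6 of 8 mice. With the macrophage level in the fit, Isg15 (0.40, adjusted p = 0.52), Ifit3 (0.72, adjusted p = 0.11) and Oasl2 (0.71, adjusted p = 0.0877) were no longer called. Isg15 was not called without CD mouse 2 at 8 weeks (0.95, adjusted p = 0.065) or CD mouse 3 at 34 weeks (0.78, adjusted p = 0.0711). Ifit3 lost its call when any 1 of 9 mice was left out, CD mice 2, 3, 4 and 6 at 8 weeks (0.63, 0.63, 0.58 and 0.61) and CD mice 1, 2, 3, 5 and 8 at 34 weeks (0.68, 0.68, 0.37, 0.68 and 0.66).

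Between 8 and 20 weeks, 1 member rose in CD mice and 5 rose in HFD mice. In CD mice Isg15 went from 1.79, 4.28 and 7.14 CPM to the values given above, with no overlap, a log2FC of 1.73 ± 0.46 (adjusted p = 0.0251, limma), and Ifit1 went from 6.63, 8.62 and 19.7 CPM with a log2FC of 1.68 ± 0.50 (adjusted p = 0.0527). Isg15 was the 1 member called, where 1.7% of all genes were called higher, 1.88% lower and 3.73% did not overlap. The call was lost without CD mouse 2 (1.56, adjusted p = 0.0742) or 3 (1.65, adjusted p = 0.0659) at 8 weeks or CD mouse 4 (1.59, adjusted p = 0.0755) or 6 (1.58, adjusted p = 0.0702) at 20 weeks, and Ifit1 was called without CD mouse 1 at 8 weeks (1.86) or CD mouse 2 or 5 at 20 weeks (1.84 and 1.83). With the macrophage level in the fit Isg15 was at 1.34 (adjusted p = 0.0607).

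In HFD mice the 5 members rose where 21.2% of all genes rose and 15.3% fell. Isg15 had a log2FC of 1.71 ± 0.46 (adjusted p = 0.00439, limma), Ifit1 1.31 ± 0.50 (adjusted p = 0.0398), Irf1 1.27 ± 0.28 (adjusted p = 0.000817), Oasl2 1.00 ± 0.36 (adjusted p = 0.0281) and Irf9 0.53 ± 0.17 (adjusted p = 0.0146). The groups overlapped for every member, whereas 24.6% of all genes did not overlap, and the median log2FC was 0.53 over the members and 0.01 over all genes. With the macrophage level in the fit Irf1 alone was called (1.24, adjusted p = 0.0218, limma), and the genes called among all tested went from 3772 to 528. The summed macrophage markers were 1175 to 3303 CPM in HFD mice at 8 weeks and 4692 to 9665 CPM at 20 weeks. These ranges did not overlap, so the macrophage term can take up the change with time itself. Ifit1 was not called without HFD mouse 1, 2, 3 or 4 at 8 weeks (1.27, 1.24, 1.21 and 1.32) or 2, 5 or 6 at 20 weeks (1.15, 1.04 and 0.99), nor Oasl2 without HFD mouse 1 or 2 at 8 weeks (0.93 and 0.96) or 2 or 6 at 20 weeks (0.90 and 0.94).

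At 34 against 8 weeks in HFD mice, Oasl2 rose (1.33 ± 0.36, adjusted p = 0.00243, limma) and Stat2 fell (-0.85 ± 0.30, adjusted p = 0.0166), where 31.7% of all genes were called higher and 20.8% lower. The 34 week mice lay above all 8 week mice for Oasl2 and Bst2 and below them for Ifit1, and 24% of all genes did not overlap. Without HFD mouse 2 at 8 weeks Irf1 was called higher as well (0.69, adjusted p = 0.0283). With the macrophage level in the fit neither Oasl2 (0.38, adjusted p = 0.498, limma) nor Stat2 (-0.93, adjusted p = 0.081) was called. The genes called among all tested went from 5432 to 1762. The summed macrophage markers of the 34 week HFD mice (5430 to 16240 CPM) lay above those at 8 weeks (1175 to 3303 CPM), so the same limit holds.

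Among the ligands, the transcript of interferon beta, Ifnb1, was read mainly in the 20 week mice, and it was singled out after its values were seen. It was read in all 12 mice at 20 weeks, at 4.39, 10.6 and 22.2 CPM (60 to 298 reads) in CD and 0.456, 6.28 and 18.9 CPM (6 to 273 reads) in HFD mice. At 8 weeks no CD mouse had more than 3 reads of it and no HFD mouse more than 18, and at 34 weeks the most was 2 reads. In CD mice the 20 week values were above those of both other times without overlap, whereas HFD mouse 3 at 20 weeks (0.456 CPM) was below the highest HFD mice at 8 weeks. The summed level of 6 conventional dendritic cell markers was 25.0 to 39.5 CPM in CD mice at 20 weeks, above every mouse of the other groups, and 13.8 to 21.3 CPM in HFD mice at 20 weeks against 8.48 to 22.6 CPM at the other times, with Zbtb46 as its largest part and Flt3, Xcr1 and Clec9a at 1.04 CPM or less in every mouse, and its part in the Ifnb1 values was not tested.

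Of the 18 other ligand genes in the table, 12 had no read in any mouse and none had more than 2 reads in a mouse, and the interferon gamma transcript, Ifng, was read in 7 mice.

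The 6 HFD mice at 20 weeks had the same order for Ifnb1 and Ifit1. Mouse 3 had 0.456 CPM of Ifnb1 and 3.72 of Ifit1, mouse 1 had 2.14 and 12.9, and mouse 4 had 5.18 and 19.6. Mouse 2 had 7.39 and 42.8, mouse 5 had 11.6 and 62.9, and mouse 6 had 18.9 and 77.0. Isg15 had the same order in these mice except for mice 1 and 4, which had 15.0 and 13.9 CPM of it. Among the CD mice at 20 weeks, mice 4 and 6 were the highest for both genes, at 19.2 and 22.2 CPM of Ifnb1 and 71.8 and 59.2 CPM of Ifit1. The order of the other 4 differed between the genes, and CD mouse 3, with 11.8 CPM of Ifnb1, had the lowest Isg15 of its group at 7.87 CPM. CD mouse 3 at 34 weeks, with 49.1 CPM of Ifit1, had no Ifnb1 read, which allows up to 0.249 CPM (3 reads) in that library, for counting error only.

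**Figure D3:**
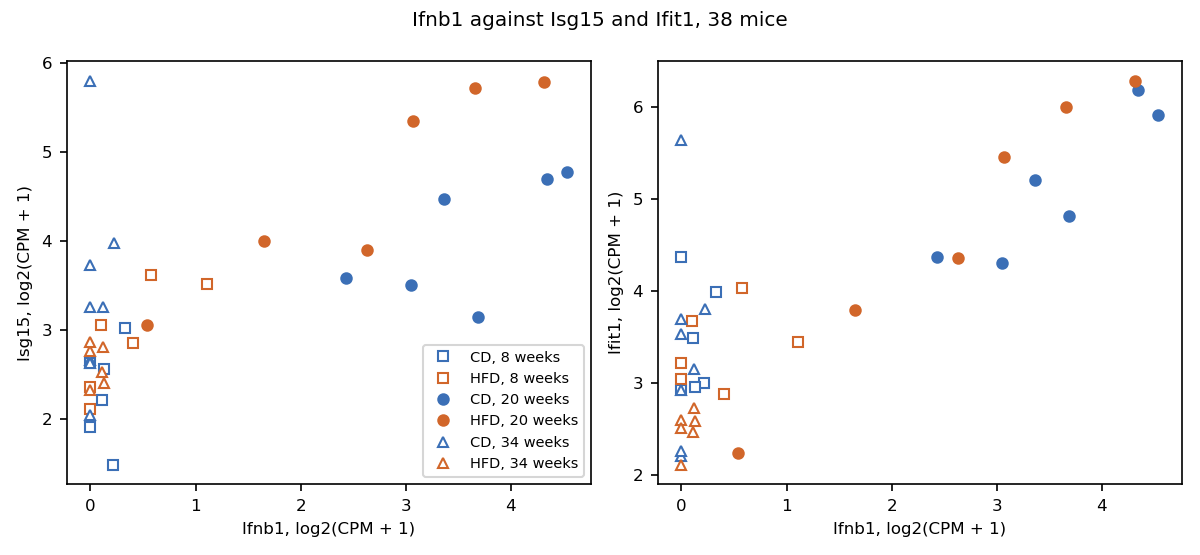
Log2(CPM + 1) of Ifnb1 against Isg15 (left) and Ifit1 (right) in the 38 mice, by diet (colour) and time (marker; filled at 20 weeks). The 12 mice at 20 weeks spread along both axes, and CD mouse 3 at 34 weeks is at 0 for Ifnb1 with high Isg15 and Ifit1.

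Mouse-to-mouse variation within groups was then compared between the members. Deviations of log2(CPM + 1) from the group means correlated in 26 of the 36 pairs by Pearson's r and 23 by Spearman's rho (permutation within groups over 38 mice, two-sided, adjusted p under 0.05 over the 36 pairs), and r was 0.05 to 0.89 with a median of 0.59. The closest pair was Isg15 and Ifit1 (r = 0.89, rho = 0.83, adjusted p = 7.2e-05 for each, permutation), followed by Irf7 and Ifit3 (r = 0.84, rho = 0.73) and Isg15 and Oasl2 (r = 0.82, rho = 0.85). The factors Stat2 and Irf9 varied together (r = 0.75, rho = 0.73, adjusted p = 7.2e-05 for each, permutation). How many pairs of other genes would pass the same test was not computed, so the count is not shown to be particular to the members. CD mice at 34 weeks spread most, with a median SD of the members of 0.97, against 0.32 to 0.40 in the other groups.

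Irf1 passed the test only with Stat2 (r = 0.64) and Irf9 (r = 0.58), and had r of 0.05 to 0.33 with the 6 other members. Without the 2 mice farthest from the median of the first member, 22 of the 36 pairs passed by r. Isg15 and Ifit1 were then at 0.85 and Irf7 and Ifit3 at 0.69, whereas Stat2 and Irf7 dropped from 0.52 to 0.22. Without CD mouse 3 at 34 weeks, a setting added after the data were seen, the first 3 pairs were at 0.86, 0.71 and 0.76.

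**Figure D4:**
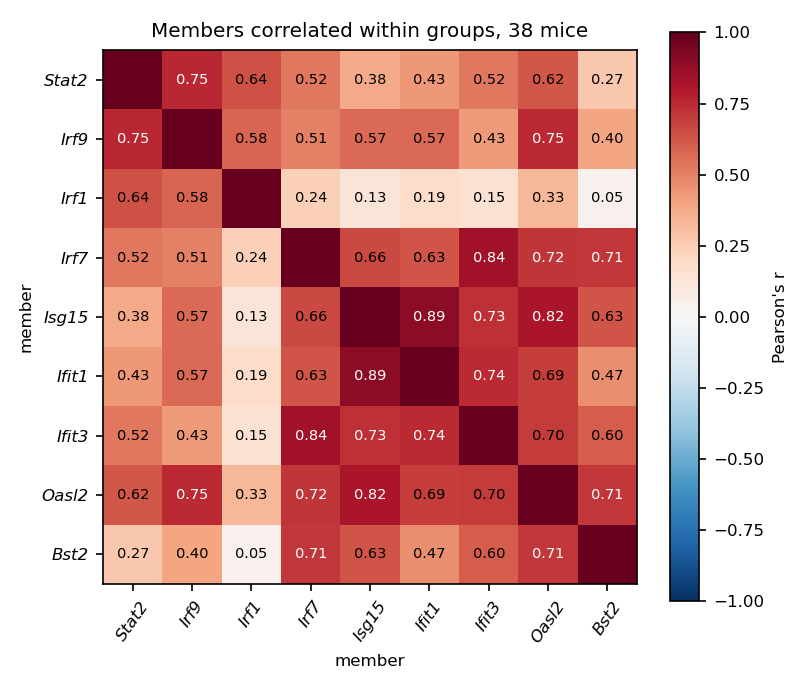
Pearson's r between the members' deviations from group means of log2(CPM + 1) over 38 mice, on a scale from -1 to 1. Isg15, Ifit1, Ifit3, Oasl2 and Irf7 form a block of high values, and the row of Irf1 is pale apart from Stat2 and Irf9.

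The genes outside the 9 that varied most like each member over the 38 mice, the 2 highest in r among all genes tested, were listed for each. For Isg15 they were Rsad2 (r = 0.87), encoding the antiviral protein viperin, and Cmpk2 (0.87), its genomic neighbour, and for Ifit1 the RNA sensor gene Ifih1 (0.86) and Rsad2 (0.84). For Irf7 they were Usp18 (0.84), which removes ISG15 from proteins, and Herc6 (0.76), a ligase that attaches it, and for Ifit3 Rtp4 (0.86) and Usp18 (0.85). For Oasl2 they were Trim30a (0.90) and Sp100 (0.89), and for Bst2 Psmb8 (0.90), an immunoproteasome subunit, and H2-T23 (0.89), an MHC class I gene.

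The factors had other companions. Irf9 was most like Ifi204 (0.86) and Il4ra (0.84), Irf1 most like Arid5a (0.85) and Brd2 (0.81), and Stat2 most like Tor1aip2 (0.86) and Slc41a1 (0.83). Without CD mouse 3 at 34 weeks, Usp18 was still first for Irf7, but at 0.74, and Tor1aip2 and Slc41a1 were 8th and 25th for Stat2.

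The other genes of the pathway were compared at 20 weeks, where 38.3% of all genes were called higher and 18.7% lower. Of 5 receptor genes tested 4 rose and none fell, with a median log2FC of 0.72 against 0.14 over all genes. Il10rb, a chain of the interferon lambda receptor, was at 83.8 CPM ± 8.96 in HFD and 39.5 CPM ± 10.1 in CD mice (log2FC 1.10, adjusted p = 0.000613, limma), Ifngr2 had a log2FC of 1.09 (adjusted p = 5.2e-05), and Ifnar2, a chain of the type I receptor, had the smallest change at 0.26 (adjusted p = 0.095). The other receptor gene on the list, Ifnlr1, was too low to be tested, at no more than 1.38 CPM in any mouse. The lambda ligand genes Ifnl2 and Ifnl3 had no read in any mouse. Macrophage markers rose in the same mice, and the part of those cells in the receptor changes was not tested. Among the kinases and STATs, Tyk2 rose (1.08, adjusted p = 1.75e-05) and Stat3 fell (-1.10, adjusted p = 1.24e-05), while Jak1 was at -0.28 (adjusted p = 0.108).

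Of 20 tested genes of the interferon gamma programme, 14 fell and 3 rose in HFD mice at 20 weeks, with a median log2FC of -1.30, where 18.7% of all genes fell and 38.3% rose. The summed conventional dendritic cell markers were also lower in these mice, at 13.8 to 21.3 CPM against 25.0 to 39.5 CPM in CD mice. Zbtb46 was the largest part of that sum, and only 1 of its 6 markers was high enough to be tested. The part of these cells in the values of the interferon gamma programme was not tested. Cxcl10, encoding a chemokine that attracts T cells, was at 228 CPM ± 58.1 in HFD and 1269 CPM ± 453 in CD mice (log2FC -2.44, adjusted p = 2.37e-07, limma), and Cxcl9, a related chemokine, had a log2FC of -2.15 (adjusted p = 4.13e-05). Gbp4, a guanylate-binding protein gene, was at -0.13 (adjusted p = 0.804). At 8 weeks 12 of the 20 fell and 4 rose with a median of -1.17, where 15.1% of all genes fell and 29.8% rose. At 34 weeks 1 fell and 3 rose with a median of -0.02, where 15.7% of all genes fell and 27.5% rose. Between 8 and 34 weeks in CD mice, 13 of the 20 fell and 3 rose (median log2FC -1.42), where 24.6% of all genes fell and 40.1% rose. In HFD mice over the same time 2 fell and 5 rose (median -0.19), where 20.8% of all genes fell and 31.7% rose.

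Of 45 other type I effectors tested, 15 rose and 5 fell at 20 weeks with a median log2FC of 0.21, close to the 0.14 of all genes. Of the genes on this list, Slfn2 (2.44, adjusted p = 0.00021, limma) and Bst1 (2.07, adjusted p = 0.000838) changed most and Parp12 least (0.02, adjusted p = 0.926). The list was set by symbol, and whether its genes, Bst1 among them, respond to interferon was not tested. At 8 weeks 9 of the 45 rose and 6 fell, where 29.8% of all genes rose and 15.1% fell. At 34 weeks 6 rose and 3 fell, where 27.5% of all genes rose and 15.7% fell. Another 8 genes of the list, Mx1 and Mx2 among them, were too low to be tested.

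Of 15 nucleic acid sensors and adaptors, 7 rose and 2 fell at 20 weeks with a median log2FC of 0.13, against a median of 0.14 over all genes, of which 38.3% rose and 18.7% fell. The largest changes were in Aim2 (2.44, adjusted p = 6.28e-06, limma), a DNA sensor, and in the kinase gene Ikbke (2.03, adjusted p = 9.24e-06), whereas its relative Tbk1 was at 0.06 (adjusted p = 0.736). Of 5 other IRF genes 1 rose, Irf5 (3.02, adjusted p = 4.73e-06), and 2 fell, including Irf4 (-1.06, adjusted p = 0.00871), while Irf3, the factor that acts with IRF7 in inducing interferon beta, was at -0.18 (adjusted p = 0.0825). Of 9 negative regulators, with a median of 0.21, 3 rose, led by Ptpn6 (3.40, adjusted p = 9.28e-07), a phosphatase of blood cells, and 2 fell, led by Socs1 (-1.31, adjusted p = 2.67e-05), which blocks JAK kinases. Usp18 was at -0.05 (adjusted p = 0.907). Irf5, Aim2, Ptpn6 and Slfn2 are known to be expressed in macrophages, whose markers rose in the same mice. The part of those cells in these changes, and in that of Bst1, was not tested.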

How the data were processed

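RNA was prepared with a stranded mRNA kit and sequenced on an Illumina NextSeq, with 3 technical replicates for each of 38 mice (114 samples), which the authors merged into 1 column per mouse. The authors aligned reads with STAR (2.5.2b per the labels) to mm10 and deposited CPM. Reads that fell on the merged exons of a gene without ambiguity were counted with featureCounts (Subread 1.5.1). Whether counting used strand is not given in the sources used here. The values of each mouse add up to 1000000, as CPM do when no TMM factor has been applied. All values were whole multiples of 1 read (within 0.1), from which read counts were recovered.

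Columns were matched to diet and time by name. Genes with a mean log2(CPM + 1) above 2 were tested with limma 3.58.1 (R 4.3.3; 1 fit over 6 groups, trended empirical Bayes, Benjamini-Hochberg over all genes tested, threshold 0.05). The code was tested on simulated data. The 9 members and the pathway and marker lists were chosen with earlier results of these data known, so that a list's direction is not independent evidence. Named in each pathway list were the 2 called genes with the largest change at 20 weeks and the gene with the smallest, and for each member the 2 most alike genes. The count over the kinases and STATs is not reported here. All members were above the low-value threshold, so the permutation test planned for members below it had no case. Correlations used 100000 permutations within groups. Each mouse was 1 replicate, and p-values measure the spread between mice. Alternatives were a pseudocount of 0.25, no filter, TMM and median-of-ratios scaling, edgeR 4.0.16 and DESeq2 1.42.0 on recovered reads, a macrophage covariate (mean log2(CPM + 1) of 13 markers), mouse number as a block, the mice of 1 time alone, and each mouse left out.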

Additional observations from a re-analysis of the deposited data

Results flagged for a closer look

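In 4 of the 54 combinations of member and group, 1 mouse stood apart from the rest by Dixon's test on log2(CPM + 1), where chance gives about 2.7. HFD mouse 3 at 20 weeks was low for Irf9, at 22.5 CPM, and the same mouse had the lowest Ifnb1, Isg15 and Ifit1 of its group. HFD mouse 2 at 8 weeks was high for Irf1, at 461 CPM. CD mouse 3 at 34 weeks was high for Ifit1, at 49.1 CPM, and for Ifit3, at 110 CPM.

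The diet difference changed between 8 and 34 weeks for 4 members by the test of the difference itself (limma). The shift was 0.74 for Irf9, 1.77 for Irf1, -0.99 for Irf7 and -1.32 for Ifit3 on the log2(CPM + 1) scale.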

How the results depend on the processing

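No call of a member changed direction under another scaling. The number of members called at 8 weeks (HFD against CD) was 3, and 5 with the mice of this time alone. At 20 weeks it was 4, and 1 with the macrophage covariate, where Oasl2 was at -0.011. At 34 weeks it was 2, against 5 by edgeR, 6 by DESeq2 and 1 with the mice of this time alone. For CD mice at 20 against 8 weeks it was 1, against 2 with TMM, median-of-ratios, edgeR or DESeq2 and 0 with the macrophage covariate. With that covariate it went from 8 to 5 for CD mice at 34 against 8 weeks, from 5 to 1 for HFD mice at 20 against 8 weeks and from 2 to 0 for HFD mice at 34 against 8 weeks. The genes called among all tested fell with it too, from 5894 to 3331 (diet at 20 weeks), 4468 to 889 (diet at 34 weeks), 6696 to 5536, 3772 to 528 and 5432 to 1762 (the last 3 in the order of the sentence before), but rose from 370 to 846 for CD mice at 20 against 8 weeks. For the diet difference at 34 against 20 weeks the number of members was 0, against 1 with TMM or the macrophage covariate, 2 by edgeR and 3 by DESeq2. The cause of these changes was not tested. With each mouse left out in turn, the number was 3 at 8 weeks, 2 to 4 at 20 weeks and 2 at 34 weeks, 0 to 2 (20 weeks) and 6 to 8 (34 weeks) against 8 weeks in CD mice, 3 to 5 and 2 to 3 in HFD mice, and 0, 0 to 1 and 4 to 6 for the 3 changes in diet difference.

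The labels do not say whether mice of the same number shared anything besides the number. Of 18 same-number pairs 8 correlated above 0.1 (range -0.51 to 0.53). Pairs of unlike number were not computed, so these values cannot tell whether such mice were handled together. With mouse number as a block, 3 members were called at 20 weeks and 4 for HFD mice at 20 against 8 weeks, and every other number was unchanged. Of the correlated pairs 26 were found with the pseudocount of 0.25, 24 with TMM and 22 without the 2 farthest mice. Over the 9 members, 10 comparisons and all alternatives but those that leave out a mouse, 664 log2FC values kept direction and call, 33 gained and 27 lost a call, and 22 uncalled values and 1 called value changed sign. Isg15, Ifit1 and Oasl2, with 22 to 38 reads in their lowest mouse, are the members whose values depth limits most.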
